A study of Mus musculus with 19 samples.

Results

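The genes described here are 45 mouse genes that make ribosomes or belong to the nucleolus, out of 25124 genes in the deposited table of exon counts. They were chosen by name, as rows of the table whose gene symbol is on a list of ribosome biogenesis and nucleolar genes, and all 45 were found and passed the filter on low counts. RNA was sequenced from 2 kinds of blood progenitor of C57BL/6 mice, each taken from fetal liver at E14.5 and from adult bone marrow at an age of 12 weeks. Hematopoietic stem cells (HSC) were sorted as 7AAD-, lineage-negative, cKit+ Sca1+ cells without CD48 and Flt3 and with CD150. Lymphoid-primed multipotent progenitors (LMPP) were sorted in the same way, but with CD48 and Flt3 and without CD150. The lineage markers were CD3, Gr1, B220 and ter119. As the labels list them, the adult gates also required cells to be CD11b-, which is not listed for the fetal gates. Adult HSC, adult LMPP and fetal LMPP had 3 libraries each and fetal HSC had 2, with no mutation and no treatment named for any group. The series calls the replicates biological, without saying whether each came from its own animal or from a pool, so p-values reflect only how far libraries of a group differed, which may be technical.

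A ribosome begins in the nucleolus, where RNA polymerase I copies the ribosomal DNA into a long precursor RNA. Small nucleolar ribonucleoproteins, either box C/D or box H/ACA, modify that precursor, and separate sets of assembly factors then cut and fold it into the small and the large subunit. Blood stem cells are known for a low rate of protein synthesis, and progenitors that divide more make more ribosomes.

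The 45 genes stood highest in fetal LMPP. Each of them had its highest group mean there, and in each of the 3 fetal LMPP libraries all 45 lay above their own mean over the 4 groups. The lowest group mean belonged to adult HSC for 20 genes, to fetal HSC for 15 and to adult LMPP for 10. Levels are given in CPM, the usual unit for counts scaled to library size, with TMM-scaled library totals. Summed over the 45 genes, the level was 7204, 6814 and 7801 CPM in adult HSC 1 to 3 and 8119 and 7685 CPM in fetal HSC 1 and 2. It was 7595, 8392 and 8387 CPM in adult LMPP 1 to 3, against 13687, 13661 and 12130.1 CPM in fetal LMPP 1 to 3. The 3 fetal LMPP libraries thus lay above the other 8 with no overlap, while the other 3 groups lay close together, with means of 7273 ± 497 (SD, n = 3), 7902 ± 306 (SD, n = 2) and 8125 ± 458 CPM (SD, n = 3), against 13159 ± 891 CPM (SD, n = 3) in fetal LMPP. As a plain share of all counts, the 45 genes took 0.759% to 0.871% of the other 8 libraries and 1.15% to 1.26% of the fetal LMPP libraries.

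**Figure D1:**
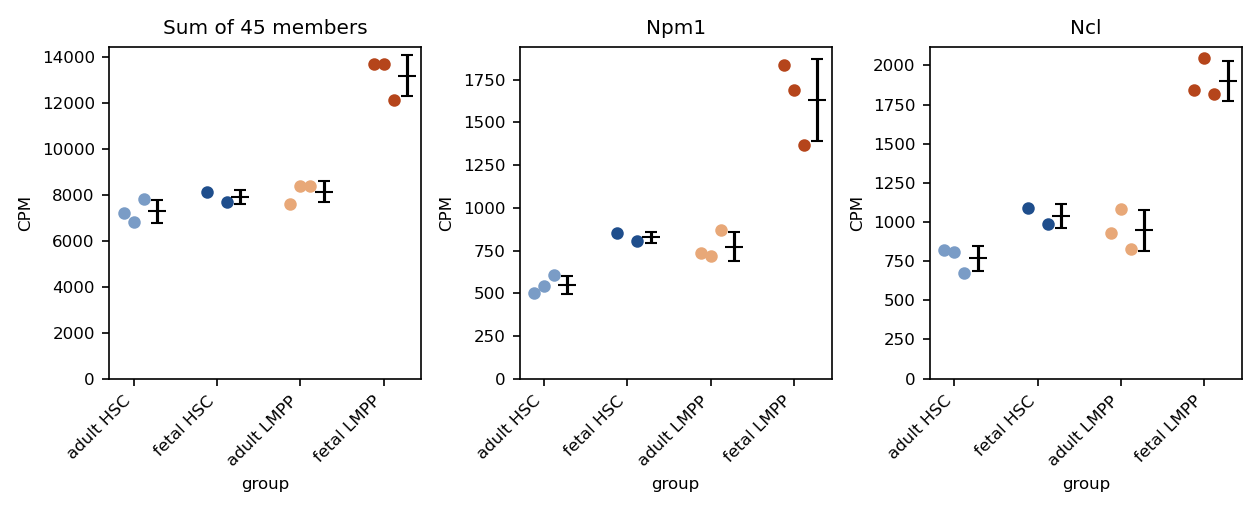
Level in CPM (y axis, from 0) of the 45 genes summed, of Npm1 and of Ncl in each library (points), by group (x axis), with the group mean and SD as black bars. The fetal LMPP points lie above all others in each panel, between 12130.1 and 13687 CPM for the sum.

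The libraries themselves separated as labelled by markers of HSC and LMPP. Library totals ran from 19799398.5 to 64783926.5 counts, and libraries correlated across genes at 0.934 to 0.977 within groups and 0.829 to 0.927 between them. The summed level of 6 HSC markers was 334 to 972 CPM in HSC libraries and 80.3 to 148 CPM in LMPP libraries, and that of 5 LMPP markers was 55.6 to 106 CPM and 1130 to 3621 CPM. Dntt, a gene of early lymphoid cells, was at 0 in all 3 fetal LMPP libraries. Kit, on which all cells were sorted, was at 195 CPM in adult HSC 3, against 1138 and 1143 CPM in adult HSC 1 and 2. It was at 158 CPM in adult LMPP 3, against 551 and 592 CPM, and at 280 CPM in fetal LMPP 1, against 474 and 526 CPM. Ly6a, the gene of Sca1, was called lower in fetal than in adult cells in both HSC and LMPP. Adult HSC 3, adult LMPP 3 and fetal LMPP 1 stood apart from their groups along the third principal component, which held 10.4% of the variance, so results are given with and without these 3 libraries. In bulk samples, fewer cells of a type and less RNA per cell cannot be told apart.

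The promoters of the 45 genes were open in nearly every group. ATAC-seq, which tags accessible DNA, gave 1 list of reproducible peaks per group, so accessibility has no spread between replicates and was not tested. A peak lay within 500 bases of the start site of 45 of 45 genes in adult HSC (81.9% of all 14720 genes tested), 43 in fetal HSC (80.4%), 42 in adult LMPP (79.0%) and 45 in fetal LMPP (75.0%). In all 4 lists, 41 of 45 genes had such a peak, against 70.7% of all genes tested. Polr1e and Ubtf lacked one in fetal HSC, and Ubtf, Bysl and Rrp1b lacked one in adult LMPP. The median signal of the peaks, as a percentile of all peaks in the same list by the authors' signal value, was 77.7, 83.4, 78.1 and 72.0 in adult HSC, fetal HSC, adult LMPP and fetal LMPP. For all genes with an open promoter it was 71.7, 74.3, 70.1 and 69.9. Percentiles from lists of different lengths show no change between groups.

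**Figure D2:**
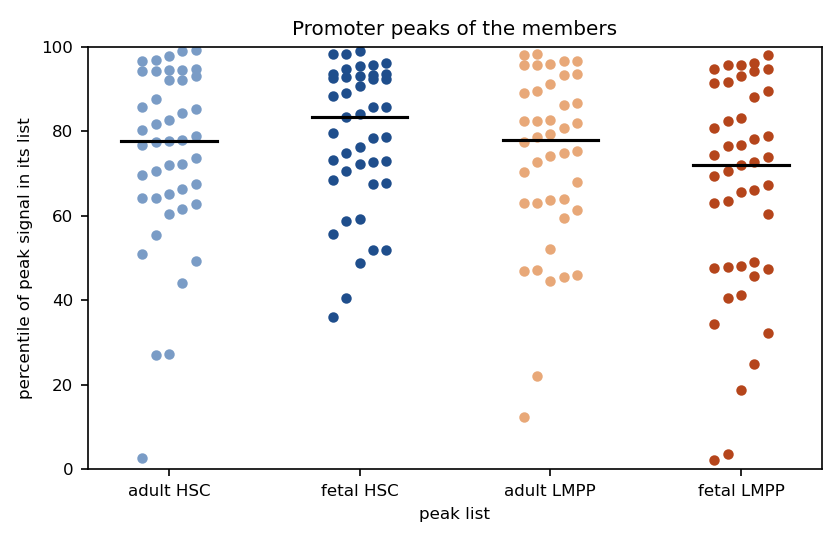
Percentile of the promoter peak's signal within its own list (y axis) for each of the 45 genes with a peak within 500 bases of the start site (points), by peak list (x axis), with the median as a line. The medians lie between 72.0 and 83.4 in all 4 lists.

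Promoter sequences are shown for 4 of the genes, since E-boxes, the short motif CACGTG bound by Myc and other factors, are known for genes of this kind. Promoters of 41 of the 45 genes were matched in RefSeq (GRCm38.p6), as 250 bases before to 50 bases after the start site, with Bop1, Fbl, Npm1 and Rrs1 not matched. The motif CACGTG, which reads the same on both strands, was present in 9 of the 41 promoters (22.0%), against 10.3% of 11170 promoters of genes tested and 8.29% of 17915 promoters in all. The 9 genes were Imp4, Ltv1, Mybbp1a, Nop2, Pes1, Rrn3, Tsr1, Utp20 and Wdr43. In 6 of the 9 the motif began at or after the start site, as it did in 184 of the 1153 promoters of tested genes that held it (16.0%). Among 86 promoters of other ribosome biogenesis genes 19 held it (22.1%). Of the 19 genes higher in fetal than in adult LMPP, 16 had a promoter and 5 of these held the motif, as did 4 of the 25 promoters of the remaining genes. These are counts of letters in a window and do not show binding. Each sequence below runs from 220 bases before the start site through 30 bases from it, on the strand of the gene, with CACGTG in capitals. Nop2 (chr6:125131663-125131912, plus strand) has it 60 bases upstream of the start site, Wdr43 (chr17:71615995-71616244, plus strand) 17 bases downstream, Rrn3 (chr16:13780479-13780728, plus strand) 215 and 48 bases upstream, and Ncl (chr1:86359426-86359675, minus strand) is shown as a promoter without it.
Nop2: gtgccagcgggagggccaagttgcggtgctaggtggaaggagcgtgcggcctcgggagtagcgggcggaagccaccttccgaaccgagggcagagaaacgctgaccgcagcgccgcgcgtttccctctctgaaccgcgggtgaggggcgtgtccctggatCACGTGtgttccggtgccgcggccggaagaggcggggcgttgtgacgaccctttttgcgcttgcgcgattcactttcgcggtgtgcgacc
Wdr43: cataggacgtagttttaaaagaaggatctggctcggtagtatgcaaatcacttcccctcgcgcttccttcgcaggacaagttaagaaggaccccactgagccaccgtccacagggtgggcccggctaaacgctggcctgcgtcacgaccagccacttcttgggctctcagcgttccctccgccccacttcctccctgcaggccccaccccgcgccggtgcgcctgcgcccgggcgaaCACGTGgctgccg
Rrn3: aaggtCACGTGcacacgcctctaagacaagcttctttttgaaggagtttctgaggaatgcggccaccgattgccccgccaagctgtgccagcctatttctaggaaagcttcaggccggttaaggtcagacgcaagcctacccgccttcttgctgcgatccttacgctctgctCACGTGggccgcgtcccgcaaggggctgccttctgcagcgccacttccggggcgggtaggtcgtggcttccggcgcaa
Ncl: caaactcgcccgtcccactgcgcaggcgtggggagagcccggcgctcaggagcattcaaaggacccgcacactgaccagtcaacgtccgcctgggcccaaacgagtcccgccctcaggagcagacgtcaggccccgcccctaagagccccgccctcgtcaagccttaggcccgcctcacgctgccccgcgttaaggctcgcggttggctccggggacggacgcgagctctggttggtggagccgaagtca

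In LMPP, the comparison of fetal with adult cells gave 19 of the 45 genes higher in fetal cells and 0 lower, at an adjusted p under 0.05 (edgeR's quasi-likelihood test, Benjamini-Hochberg over 14720 genes). Of all genes tested, 7.08% were higher and 8.29% lower. The log2 difference was above 0 for 45 of 45 genes, with a median of 0.62 and a range from 0.08 to 1.15, while the median over all genes tested was 0. For 33 of the 45 genes the lowest fetal library lay above the highest adult library, against 17.8% of all genes, and the reverse held for 0 of the 45 genes, against 16.9%. Called genes with a change of at least 2-fold were Wdr75, Rrp1b, Npm1, Ncl, Nolc1 and Mybbp1a. By role, the counts were 4 of 6 abundant nucleolar proteins, 9 of 16 small subunit factors, 5 of 10 large subunit factors, 1 of 4 box H/ACA proteins, 0 of 3 box C/D proteins and 0 of 6 polymerase I genes.

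The abundant nucleolar proteins gave the largest median difference between fetal and adult LMPP of the 6 role groups, 1.03 on the log2 scale. Npm1, nucleophosmin, a histone and ribosome chaperone of the outer nucleolus, (chr11:33152498-33163206 in mm10, minus strand) measured 734, 716 and 869 CPM in adult LMPP 1 to 3 and 1839, 1689 and 1366 CPM in fetal LMPP 1 to 3. The groups did not overlap, and the fetal level was 2.11-fold the adult one (log2 difference 1.08 ± 0.14 SE, edgeR adjusted p = 0.000915). Processed copies of Npm1 elsewhere in the genome can share its reads, so its own value is uncertain to that extent. Ncl, nucleolin, an RNA-binding protein that works on the earliest precursor (chr1:86344719-86359455, minus strand), measured 930.4, 1086 and 825 CPM in adult LMPP and 1840.1, 2048 and 1818 CPM in fetal LMPP. All 3 fetal libraries again lay above the adult ones, with a log2 difference of 1.01 ± 0.14 (edgeR adjusted p = 0.00103).

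Nolc1, a chaperone of small nucleolar ribonucleoproteins (chr19:46075847-46085543, plus strand), measured 160.3, 194 and 143 CPM in adult LMPP and 335, 348 and 349 CPM in fetal LMPP. Its fetal libraries agreed closely and lay well above the adult ones (log2 difference 1.05 ± 0.15, edgeR adjusted p = 0.00125). Mybbp1a, a nucleolar protein that binds the Myb factor, was called at 1.15 ± 0.34 (edgeR adjusted p = 0.0472), but adult LMPP 3 was at 146 CPM beside 299 and 363 CPM in adult LMPP 1 and 2, and the call held in 8 of 19 settings. Gnl3, nucleostemin, a GTP-binding protein first described in stem cells, measured 199.9, 215 and 289 CPM in adult LMPP and 394, 302 and 259 CPM in fetal LMPP. Fetal LMPP 3 lay below adult LMPP 3, and the difference of 0.44 ± 0.20 was not called (edgeR adjusted p = 0.174). Ddx21, an RNA helicase, was not called either, at 0.83 ± 0.31 (edgeR adjusted p = 0.101).

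Of the small subunit factors, the lowest p belonged to Wdr75, part of the complex that first binds the growing precursor. It measured 86.7, 79.0 and 101 CPM in adult LMPP and 220.5, 176 and 169 CPM in fetal LMPP. The groups were well apart, with a log2 difference of 1.08 ± 0.20 (edgeR adjusted p = 0.00504). The other called members of this role were Wdr43, Bysl, Rrp9, Utp15, Mphosph10, Nop14, Noc4l and Tsr1, at 0.61 to 0.81. Heatr1, a further part of the Wdr75 complex, measured 48.4, 69.2 and 15.8 CPM in adult LMPP and 56.3, 106 and 114 CPM in fetal LMPP. The groups overlapped, and its difference of 1.05 ± 0.58 was not called (edgeR adjusted p = 0.259). Adult LMPP 3 and fetal LMPP 1 lay far below the other libraries of their groups. Without adult HSC 3, adult LMPP 3 and fetal LMPP 1, it was 0.88 (edgeR adjusted p = 0.00486). Imp3, which in yeast helps the U3 RNA pair with the precursor, had the smallest difference of the 45 genes, 0.08 ± 0.14 (95% interval −0.24 to 0.39), at 61.6 to 66.7 CPM in adult and 66.3 to 69.6 CPM in fetal LMPP.

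Of the large subunit factors, Nop2, a methyltransferase of the large ribosomal RNA (chr6:125131883-125144753, plus strand), measured 129, 147 and 138 CPM in adult LMPP and 265, 253 and 253 CPM in fetal LMPP. The fetal libraries lay close to each other and far above the adult ones, a 1.87-fold difference (log2 0.90 ± 0.12, edgeR adjusted p = 0.00117). Bop1, which with Pes1 and Wdr12 forms the complex that processes the large subunit RNA (chr15:76452988-76477249, minus strand), measured 129.7, 151 and 146 CPM in adult and 293, 277 and 254 CPM in fetal LMPP. It too showed no overlap, with a log2 difference of 0.95 ± 0.14 (edgeR adjusted p = 0.00139). Within that complex, Pes1 was called at 0.58 ± 0.13 (edgeR adjusted p = 0.0150), and Wdr12 was not, at 0.55 ± 0.23 (edgeR adjusted p = 0.141). Rrp1b and Rrs1 were also called, at 1.10 and 0.54, and Ebna1bp2, Noc2l, Nop16 and Noc3l were not, at 0.42 to 0.90.

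Of the modifying ribonucleoproteins, 1 of 7 genes was called. Gar1, a core protein of the box H/ACA complex, which converts uridine to pseudouridine, measured 80.0, 69.4 and 71.7 CPM in adult LMPP and 107, 119.8 and 104 CPM in fetal LMPP. Its libraries did not overlap, and it was called at 0.58 ± 0.14 (edgeR adjusted p = 0.0181). The call was lost without adult LMPP 2, without fetal LMPP 2 or with plain totals, at an edgeR adjusted p of up to 0.0776. Dkc1, the pseudouridine synthase of the same complex, measured 377, 377 and 494 CPM in adult and 588, 495 and 375 CPM in fetal LMPP. These ranges overlapped, and the difference of 0.23 ± 0.20 was not called (edgeR adjusted p = 0.502). Fbl, fibrillarin, the methyltransferase of the box C/D complex, measured 209, 221 and 196 CPM in adult and 294, 317 and 299.9 CPM in fetal LMPP. The groups did not overlap, but at 0.54 ± 0.17 the gene missed the threshold (edgeR adjusted p = 0.0589).

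Among the polymerase I genes, Polr1b, the next-largest subunit after Polr1a, had the lowest p in LMPP. It measured 87.5, 91.8 and 47.3 CPM in adult and 120.1, 174 and 111 CPM in fetal LMPP, apart but widely spread (log2 difference 0.84 ± 0.26, edgeR adjusted p = 0.0563). Polr1a, the largest subunit, measured 36.5, 54.2 and 25.4 CPM in adult and 49.5, 74.1 and 64.8 CPM in fetal LMPP, with overlap (0.70 ± 0.30, edgeR adjusted p = 0.140). In these and the next genes, adult LMPP 3 was the lowest adult library. Rrn3, which brings the polymerase to the ribosomal promoter, measured 49.1, 72.6 and 47.6 CPM in adult and 80.6, 98.4 and 104 CPM in fetal LMPP (0.74 ± 0.31, edgeR adjusted p = 0.134). Ubtf, which binds ribosomal DNA and keeps it open, measured 122, 144 and 88.6 CPM in adult and 161, 190.5 and 183 CPM in fetal LMPP (0.59 ± 0.23, edgeR adjusted p = 0.103). For both, all fetal libraries lay above all adult ones although neither was called.

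**Figure D3:**
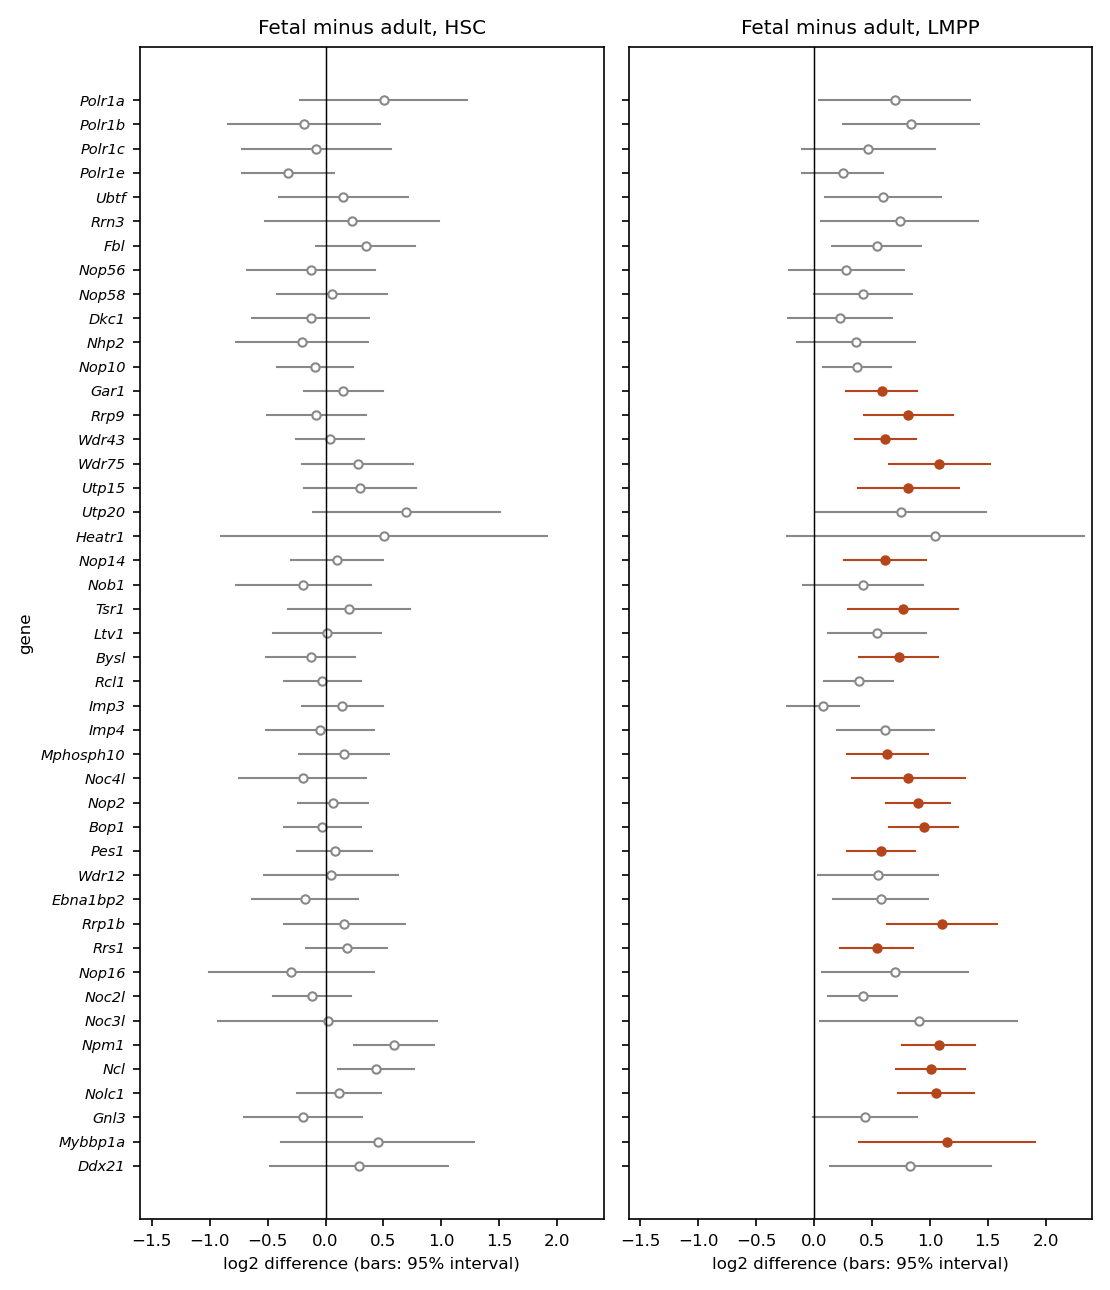
Log2 difference of fetal minus adult cells (x axis) for each of the 45 genes (y axis), in HSC (left) and LMPP (right), with 95% intervals as bars and filled red points for genes with an edgeR adjusted p under 0.05. In LMPP all 45 points lie above 0 and 19 are filled, and in HSC 27 lie above 0 and 0 are filled.

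The number of genes called between fetal and adult LMPP depended on single libraries, while the direction did not. Leaving out adult HSC 3 gave 31 (10.9% of all genes), and leaving out adult LMPP 1 or fetal LMPP 2 gave 11 (3.82% and 4.19%). Without adult HSC 3, adult LMPP 3 and fetal LMPP 1 together it was 37 (15.2% of all genes), which included all 19 genes called with every library. In each setting run except plain library totals, where 44 genes did, all 45 genes lay above 0. With plain totals the median of all genes was −0.08, and the split of all called genes moved from 1042 higher and 1221 lower to 926 higher and 1643 lower. Across 19 settings, 10 of the 19 genes were called each time, namely Rrp9, Wdr43, Wdr75, Bysl, Nop2, Bop1, Rrp1b, Npm1, Ncl and Nolc1.

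Markers of other states moved with this comparison in part. The summed level of 10 genes of dividing cells was 1999 to 2608 CPM in adult LMPP and 2519 to 3045 CPM in fetal LMPP. Of the 10, 1 was called higher, Bub1, at 98.8 to 101 CPM in adult and 141 to 179 CPM in fetal LMPP. Mki67 went the other way without overlap, at 142 to 197 CPM and 73.4 to 121 CPM. The libraries of the remaining genes overlapped between the ages. The sum of 8 erythroblast markers was 23.1 to 51.0 CPM in adult and 135 to 429 CPM in fetal LMPP, with Slc4a1, which defines maturing red cells, at 0 in both. The sum of 7 macrophage markers was 63.9 to 73.4 CPM against 79.3 to 171 CPM, with Csf1r at 18.9 to 42.5 CPM against 66.1 to 153 CPM, but 0 of the 7 were called higher and 2, C1qb and Cd68, were called lower. The sum of 5 LMPP markers was 2965 to 3621 CPM in adult and 1130 to 1241 CPM in fetal LMPP, with Flt3 and Dntt called lower. For 7 hepatocyte markers the sum was 11.8 to 16.0 CPM against 11.6 to 55.0 CPM, and for 6 neutrophil markers it was 10.97 to 25.8 CPM against 5.17 to 31.3 CPM. Of these lists, the hepatocyte genes Alb and Apoa1, the neutrophil gene Ltf and the erythroid genes Hbb-bt and Hbb-bs were called higher in fetal LMPP. The liver genes Alb and Ttr and the macrophage gene Marco were at 0 in adult LMPP. The part of these cells in the result was not tested.

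In HSC, the comparison of fetal with adult cells gave 0 of the 45 genes past the edgeR threshold in either direction, while 2.07% of all genes tested were higher in fetal cells and 2.89% lower. At an unadjusted p under 0.05 there were 2, Npm1 and Ncl, against 2743 of all 14720 genes. DESeq2 called 1, Npm1, higher in fetal cells, against 4.42% of all genes. The log2 difference was above 0 for 27 genes and below 0 for 18, with a median of 0.06. For 7 genes the fetal libraries lay above the adult ones, against 20.8% of all genes, and for 1 gene below, against 20.3%. Fetal HSC had only 2 libraries. The sum of 10 genes of dividing cells was 975 to 1273 CPM in adult and 1300 to 1840 CPM in fetal HSC, and that of 8 erythroblast markers was 44.2 to 158 CPM and 928 to 1059 CPM.

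Npm1 measured 503, 543 and 607 CPM in adult HSC 1 to 3 and 851 and 806 CPM in fetal HSC 1 and 2. The fetal libraries lay above the adult ones, and at 0.59 ± 0.16 (95% interval 0.25 to 0.93) the gene missed the threshold (edgeR adjusted p = 0.0592). Ncl measured 824, 805 and 672 CPM in adult and 1090.3 and 984 CPM in fetal HSC, also without overlap (0.44 ± 0.15, edgeR adjusted p = 0.138). Leaving out adult HSC 3 or adult LMPP 3 gave 1 gene called (2.24% and 2.27% of all genes higher). Leaving out adult HSC 3, adult LMPP 3 and fetal LMPP 1 together gave 3, Npm1, Wdr75 and Wdr12. There 7.59% of all genes were higher, so that the share of the 45 was near that of all genes. Npm1 and Ncl together made up 16.4% to 19.8% of the summed level in adult HSC and 23.3% to 23.9% in fetal HSC, and 20.2% to 21.9% in adult LMPP and 26.2% to 27.4% in fetal LMPP.

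In the other roles, the gene with the lowest p in HSC lay on either side of 0. Polr1e, an associated factor of polymerase I, measured 40.8, 47.3 and 43.3 CPM in adult and 36.5 and 33.4 CPM in fetal HSC, the only gene of the 45 with all fetal libraries lower (−0.32 ± 0.18, edgeR adjusted p = 0.378). Fbl measured 178, 169 and 109 CPM in adult and 199.9 and 186 CPM in fetal HSC (0.35 ± 0.19, edgeR adjusted p = 0.383). Adult HSC 3 was again the lowest, and the ages did not overlap. Gar1 measured 67.0, 63.3 and 57.1 CPM in adult and 73.7 and 65.3 CPM in fetal HSC (0.15 ± 0.15, edgeR adjusted p = 0.677). Utp20, in yeast a large scaffold of the small subunit precursor, measured 16.3, 18.8 and 8.64 CPM in adult and 26.1 and 21.1 CPM in fetal HSC (0.70 ± 0.36, edgeR adjusted p = 0.352). The ages overlapped for Gar1 and not for Utp20. Rrs1, which in yeast helps load the 5S RNA particle, measured 83.9, 71.3 and 87.2 CPM in adult and 96.2 and 87.1 CPM in fetal HSC, with overlap (0.18 ± 0.16, edgeR adjusted p = 0.613).

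Of the genes that rose in fetal LMPP, 4 are given here with their values in HSC. Nop2 measured 167, 138 and 144 CPM in adult and 166 and 146 CPM in fetal HSC (log2 difference 0.06, 95% interval −0.24 to 0.37). Bop1 measured 147, 119 and 146 CPM against 143 and 127 CPM (−0.03, −0.36 to 0.31), and Nolc1 181, 156 and 139.6 CPM against 178 and 166 CPM (0.11, −0.24 to 0.47). Wdr75 measured 72.5, 85.0 and 115 CPM in adult and 118 and 103 CPM in fetal HSC (0.28, −0.20 to 0.75). In each the libraries of the ages overlapped. The upper limit lay below the difference measured in LMPP, but this leaves out the error of that difference. The 4 genes were also picked for their rise in LMPP, which favours a smaller difference in HSC. The difference of differences, tested below, was called by edgeR for none of them (adjusted p of 0.0737, 0.0595, 0.0912 and 0.274, in this order). Without the libraries that stood apart, Wdr75 was called higher in fetal HSC (0.47 ± 0.12, edgeR adjusted p = 0.0296). Nop2, Bop1 and Nolc1 were not, at 0.02, 0.007 and 0.02.

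Among the fixed polymerase genes in HSC, Polr1a measured 47.0, 48.7 and 29.1 CPM in adult and 58.7 and 59.1 CPM in fetal cells (0.50 ± 0.33, edgeR adjusted p = 0.470). Polr1b measured 121, 105 and 86.5 CPM against 91.6 and 91.0 CPM (−0.19 ± 0.30, edgeR adjusted p = 0.813). The libraries of the ages did not overlap for Polr1a and did for Polr1b. For Rrn3 the values were 89.1, 81.9 and 36.1 CPM in adult and 77.2 and 84.3 CPM in fetal HSC, and for Ubtf 148, 144 and 87.8 CPM and 147 and 135 CPM. Adult HSC 3 was the lowest of the HSC libraries for all 4 genes. Dkc1 measured 311, 274 and 409 CPM in adult and 319.7 and 286 CPM in fetal HSC, Gnl3 179, 167 and 237 CPM and 172 and 168 CPM, and Heatr1 60.9, 71.8 and 16.3 CPM and 70.9 and 70.0 CPM. All 3 overlapped between the ages.

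The difference of differences, fetal minus adult in LMPP less the same in HSC, was above 0 for 44 of 45 genes, with a median of 0.54 against 0.01 over all genes tested. Imp3 was the exception, at −0.07 ± 0.21. None of the 45 reached an adjusted p under 0.05 by edgeR in either direction (0.387% of all genes were above and 0.543% below). An unadjusted p under 0.05 was met by 19, against 1899 of all 14720 genes. DESeq2 called 5, against 2.07% of all genes above 0. The lowest p belonged to Bop1 (0.97 ± 0.20, edgeR adjusted p = 0.0595), Nop2 (0.84 ± 0.19, edgeR adjusted p = 0.0737), Nolc1 (0.94 ± 0.22, edgeR adjusted p = 0.0912) and Bysl (0.86 ± 0.23, edgeR adjusted p = 0.133). DESeq2 called these 4 and Rrp9. Without adult HSC 3, adult LMPP 3 and fetal LMPP 1, edgeR called 9 (2.29% of all genes), with all 4 among them.

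Within fetal liver, LMPP exceeded HSC for all 45 genes, and 23 were called higher and 0 lower by edgeR (8.21% and 9.85% of all genes). The median log2 difference was 0.65, against −0.08 over all genes. For 41 genes the LMPP libraries lay above the HSC libraries, against 27.6% of all genes, and for 0 genes below, against 33.3%. The called genes were 4 of 6 nucleolar proteins, 8 of 16 small subunit factors, 6 of 10 large subunit factors, 3 of 4 box H/ACA proteins, Fbl of the box C/D proteins and Polr1e of the polymerase. Bop1 rose from 143 and 127 CPM in fetal HSC to 293, 277 and 254 CPM in fetal LMPP (1.03 ± 0.16, edgeR adjusted p = 0.00235), and Npm1 from 851 and 806 CPM to 1839, 1689 and 1366 CPM (0.98 ± 0.16, edgeR adjusted p = 0.00349). Bop1 was the only gene of the 23 called in all 19 settings, and the call of Npm1 was lost without fetal HSC 2.

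This comparison rested on the 2 fetal HSC libraries. Leaving out fetal HSC 1 gave 9 called genes (2.22% of all genes higher), fetal HSC 2 gave 1 (1.39%), fetal LMPP 1 gave 13 (5.38%) and fetal LMPP 2 gave 10 (4.56%). With adult HSC 3, adult LMPP 3 and fetal LMPP 1 left out it was 37 (17.9% of all genes), and all 23 were among them. With plain library totals in place of scaled ones it was 11, with 42 genes above 0 and the median of all genes at −0.33, and the split of all called genes moved from 1208 higher and 1450 lower to 746 higher and 2161 lower. The sum of genes of dividing cells was 1300 to 1840 CPM in fetal HSC and 2519 to 3045 CPM in fetal LMPP, and 4 of those 10 genes were higher in LMPP. The sum of 8 erythroblast markers was 928 to 1059 CPM in fetal HSC and 135 to 429 CPM in fetal LMPP. The part of either in the result was not tested.

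In adult marrow the same step showed little. Of the 45 genes 1 was higher in LMPP and 1 lower by edgeR (7.76% and 9.33% of all genes), the median log2 difference was 0.06 against −0.05 over all genes, and 31 genes lay above 0. With plain library totals the median of the 45 genes was −0.05 and that of all genes −0.17, with 19 above 0, so this direction turned with the scaling. Libraries did not overlap for 7 genes higher in LMPP (13.7% of all genes) and 1 lower (18.1%). Dividing-cell genes were higher in adult LMPP than in adult HSC for 9 of 10, with sums of 1999 to 2608 CPM against 975 to 1273 CPM. The part of division in the result was not tested. Npm1 was the higher gene, at 734, 716 and 869 CPM in adult LMPP and 503, 543 and 607 CPM in adult HSC (0.49 ± 0.14, edgeR adjusted p = 0.0371), and this call held in 9 of 19 settings. It was lost with the replicate number as a block (0.49 ± 0.15, edgeR adjusted p = 0.0618), by which the adult HSC and LMPP libraries may be paired. The count of higher genes was 0 without adult HSC 1, adult HSC 2 or any adult LMPP library (4.94% to 6.33% of all genes). It was also 0 without fetal LMPP 2 (6.82%), and 3 without adult HSC 3 (10.3%). Without fetal HSC 1 or fetal HSC 2 the median log2 difference of the 45 genes stayed at 0.06.

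Bysl, bystin, a late factor of the small subunit, was the only gene of the 45 called lower in any comparison. It measured 119.5, 105 and 134 CPM in adult HSC and 69.3, 77.2 and 89.4 CPM in adult LMPP, without overlap (−0.60 ± 0.15, edgeR adjusted p = 0.0224), and 109 CPM in both fetal HSC libraries and 148, 120.2 and 124 CPM in fetal LMPP (0.26 ± 0.17, edgeR adjusted p = 0.327). The adult call held in 15 of 19 settings and was lost without adult HSC 1, adult LMPP 1 or adult LMPP 2, or with only these 2 groups fitted. Bysl overlaps Ccnd3, the gene of cyclin D3, on the opposite strand, and the libraries do not mark strand. Ccnd3 was also lower in adult LMPP than in adult HSC, at −0.91 ± 0.14 (edgeR adjusted p = 0.00201), and was at 185 to 236 CPM against 353 to 405 CPM, so reads from the 2 genes cannot be told apart where they overlap.

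**Figure D4:**
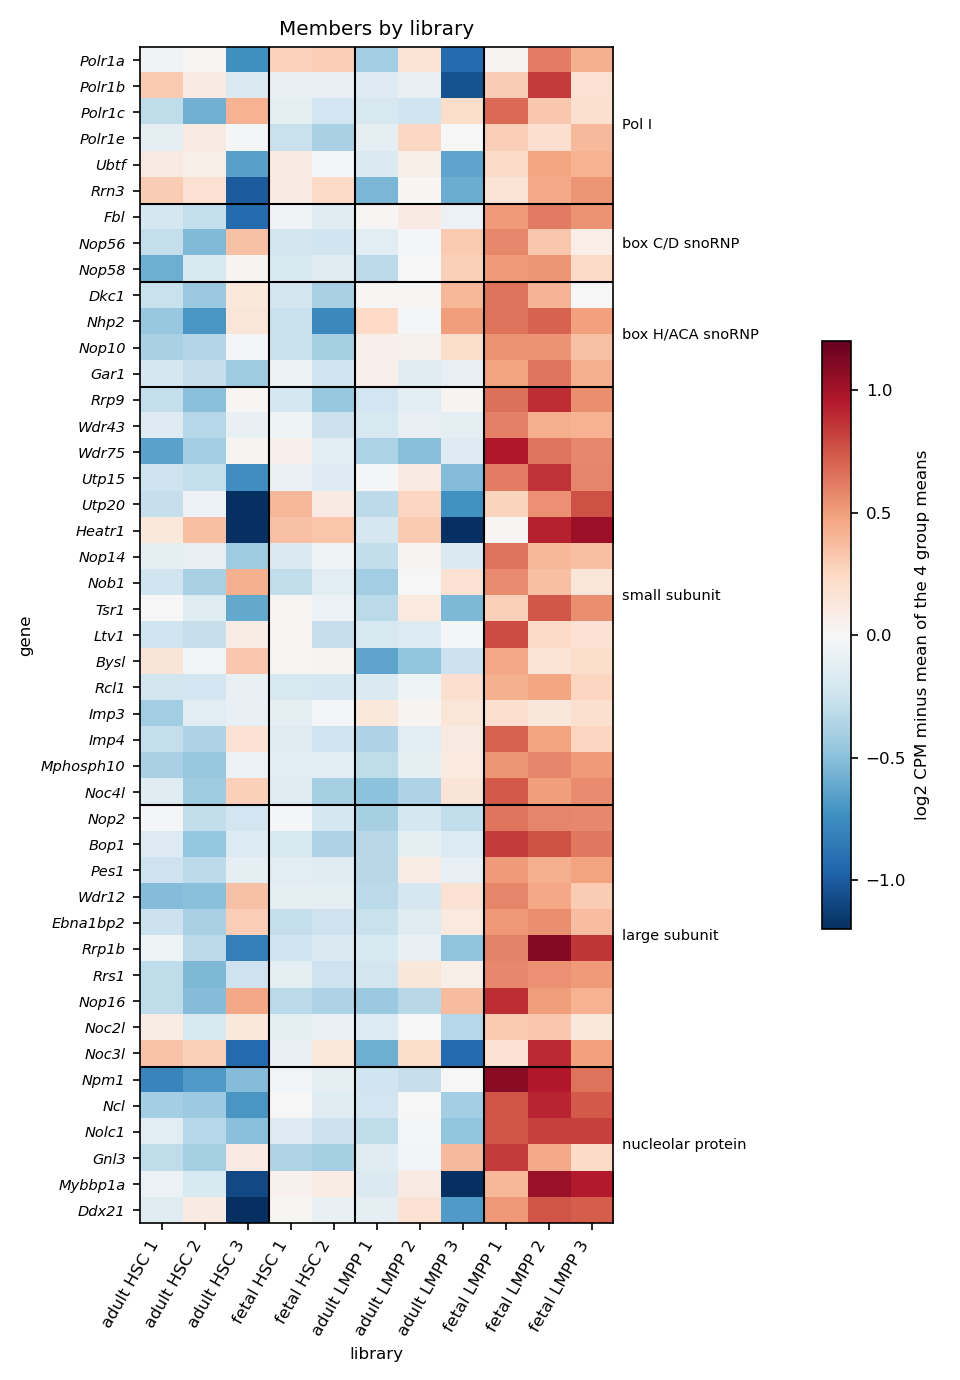
Log2 CPM of each of the 45 genes (rows, by role) in each library (columns), minus the mean of the 4 group means, with red above and blue below that mean. The 3 fetal LMPP columns are red throughout, and adult HSC 3 and adult LMPP 3 are dark blue in some rows, such as Heatr1, Noc3l and Mybbp1a.

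Levels of the 45 genes spanned a wide range. Per kilobase of exon, with lengths as the deposited table gives them, the mean over the 4 groups was highest for Npm1, at 671 CPM per kilobase, followed by Nop10 of the box H/ACA complex at 422 and Nop56 of the box C/D complex at 325. It was lowest for Utp20 at 2.401, Noc3l at 6.56 and Polr1a at 8.31 CPM per kilobase. Of the polymerase I genes, the subunits Polr1a and Polr1b, at 8.31 and 25.5, stood below Ubtf, at 30.2 CPM per kilobase.

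Genes with long transcripts lay low in 3 libraries. In adult HSC 3, adult LMPP 3 and fetal LMPP 1, the 22 genes with more than 2764 bases of exon had median deviations from their group mean of −0.29, −0.22 and −0.11 on the log2 scale, and the 23 shorter genes had 0.24, 0.17 and 0.09. Across the 45 genes the deviation correlated with log2 length at r of −0.62, −0.66 and −0.56 in these libraries, and across 14720 genes at −0.40, −0.32 and −0.22, as a description in which all points share the library. Utp20, Ncl, Heatr1 and Polr1a, with 8767, 8241, 6729 and 6073 bases, are among the longest of the 45. Of these, Ncl deviated least, at −0.18, −0.19 and −0.05 in the 3 libraries. Ubb, a polyubiquitin gene on the list of handling genes, was at 27468 and 28129 CPM in adult HSC 3 and adult LMPP 3 and at 8861 to 15404 CPM in the other 9 libraries. Fetal LMPP 1 lay in that range, at 14570.5 CPM, but above the 9733 and 10081 CPM of fetal LMPP 2 and 3. Of the same list, Hspa1a and Hspa1b were also highest in adult HSC 3 and adult LMPP 3 (Hspa1a at 56.8 and 26.8 CPM). Jun was the lowest of its group in both (30.3 and 29.0 CPM), and Fos lay within the range of its group in both. In fetal LMPP 1, Jun was the lowest of all libraries, at 19.3 CPM. Fos was at 2.34 CPM there, against 28.4 and 40.9 CPM in fetal LMPP 2 and 3. Hspa1a and Hspa1b were not raised in fetal LMPP 1 (1.67 and 3.22 CPM). The part of RNA quality in these results was not tested. With these 3 libraries left out, 19 of the 22 longer genes and 18 of the 23 shorter genes were called higher in fetal than in adult LMPP, against 10 and 9 with all libraries.

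**Figure D5:**
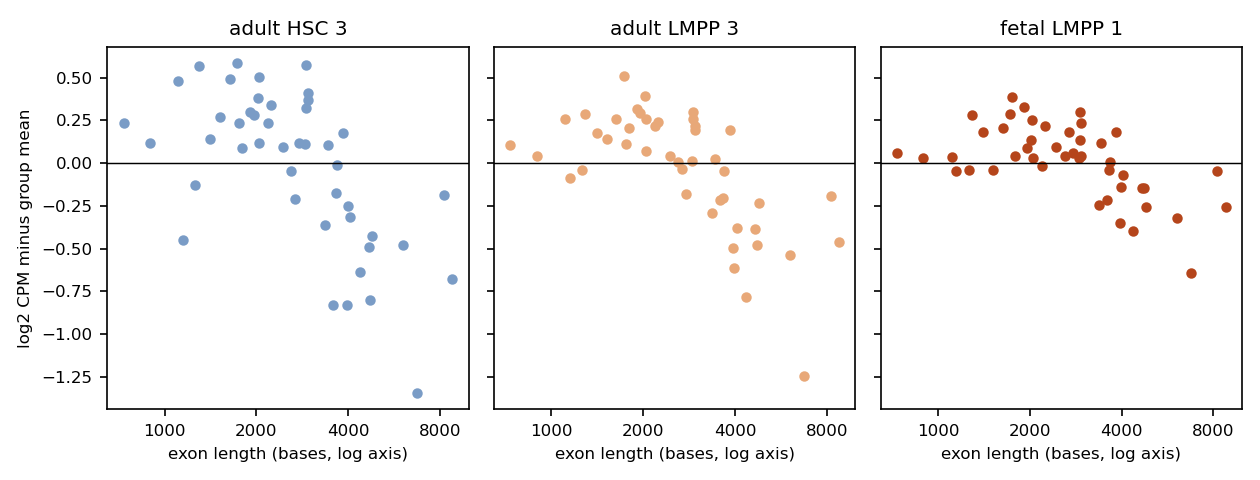
Deviation of each gene's log2 CPM from its group mean (y axis) against exon length in bases (x axis, log scale) in adult HSC 3, adult LMPP 3 and fetal LMPP 1 (panels), with 1 point for each of the 45 genes. Long genes lie lower on the whole, with medians of −0.29, −0.22 and −0.11 and some genes above 0, down to −1.34 for Heatr1 in adult HSC 3.

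The spans of some genes overlap those of neighbours, and whether reads were shared was not tested. Spans of 11 of the 45 genes overlap another gene over 200 bases long, namely Polr1e, Nop56, Dkc1, Nhp2, Tsr1, Bysl, Bop1, Ebna1bp2, Noc2l, Gnl3 and Mybbp1a, and since the kit does not mark strand their single values are uncertain. Mybbp1a overlaps Spns2, which did not differ between fetal and adult LMPP beyond its error (−0.31 ± 0.34, edgeR adjusted p = 0.596). Spns2 was called lower in fetal LMPP than in fetal HSC (−1.39 ± 0.37, edgeR adjusted p = 0.0285). Between fetal and adult LMPP, Srr, the partner of Tsr1, was at 0.50 ± 0.19 (edgeR adjusted p = 0.0964). Ccnd3, the partner of Bysl, was at 0.37 ± 0.14 (edgeR adjusted p = 0.108). Rmnd5b, the partner of Nhp2, was called lower in fetal LMPP (−0.95 ± 0.25, edgeR adjusted p = 0.0296). The partners of Bop1, Scx and Mroh1, were at 0 to 0.683 CPM and 3.80 to 35.7 CPM.

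Other ribosome biogenesis genes were counted in the same comparisons. A list of 104 such genes, which holds none of the 45, gave 0 called by edgeR in fetal against adult HSC. Of all genes tested, 2.07% were higher and 2.89% lower. At an unadjusted p under 0.05 there were 3, against 2743 of all 14720 genes. DESeq2 called 1 lower, against 885 of all genes. Between fetal and adult LMPP 23 were higher and 0 lower (7.08% and 8.29% of all genes), with a median log2 difference of 0.47 over the 104. Those with the lowest p were Ddx18, an RNA helicase, with means of 105 CPM in adult LMPP and 202 CPM in fetal (0.95 ± 0.12, edgeR adjusted p = 0.000691), and Mrto4, whose yeast relative assembles the large subunit (0.90 ± 0.16, edgeR adjusted p = 0.00459). Next came Ftsj3, an rRNA methyltransferase (0.85 ± 0.16, edgeR adjusted p = 0.00700), and Wdr36, a small subunit factor (0.94 ± 0.19, edgeR adjusted p = 0.00841). In LMPP against HSC 4 were higher in adult marrow (7.76% of all genes) and 26 in fetal liver (8.21%). In both, 0 were lower (9.33% and 9.85%). The interaction gave 0 by edgeR, with 22 at an unadjusted p under 0.05, against 1899 of all 14720 genes. DESeq2 called 6 there, against 304 of all genes above 0 and 363 below. Leaving out adult HSC 3 moved the count between fetal and adult LMPP to 38 (10.9% of all genes) and adult LMPP 1 to 9 (3.82%). Leaving out fetal LMPP 1 or 2 moved it to 14 (4.66% and 4.19%). In fetal liver, leaving out adult HSC 3 gave 45 (12.3% of all genes), fetal LMPP 1 or 2 gave 11 (5.38% and 4.56%), and fetal LMPP 3 gave 17 (6.11%). Without fetal HSC 1 or fetal HSC 2 the median log2 difference of the 104 was 0.55 or 0.51. In adult marrow, leaving out adult HSC 3 gave 14 (10.3% of all genes), and adult LMPP 2 or fetal LMPP 2 gave 1 (6.33% and 6.82%). Leaving out adult HSC 1, adult HSC 2, adult LMPP 1 or adult LMPP 3 gave 0 (4.94% to 6.25%).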

How the data were processed

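RNA of sorted cells was amplified with SMART-Seq v4 and tagmented with Nextera XT, which keep neither strand nor molecular identifiers, per the labels' protocols. The authors' deposited table holds expected counts of exon reads per gene (mm10) in steps of 0.5, made with HOMER per the file headers, and 22.5% of its values were not whole and were rounded here. The submitters' processing notes name, without their order, the trimmer Trim Galore, the aligners STAR and Bowtie2 2.3.5, the counting tools HOMER and RSEM, the peak caller MACS2, and also DESeq2, SAMtools 1.9 and Picard. The builds they name are GRCm38.p5, mm10 and NCBIM37. The authors deposited 1 list of ATAC-seq peaks per group, with a display score, a signal value and a −log10 q per peak, and the sources used here do not state whether reads of replicates were pooled. The score was not used. 0 columns of other samples were present.

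The 45 genes and the lists were chosen with earlier results of these data known. Counts were fitted with edgeR 4.0.16 in R 4.3.3 (TMM scaling, filterByExpr, which kept 14720 genes, 1 mean per group over 11 libraries, quasi-likelihood test, Benjamini-Hochberg adjustment over all genes tested, called at an adjusted p under 0.05). The SE of a log2 difference was its size over the square root of F, the common biological coefficient of variation was 0.372, and library totals of 19799398.5 to 64783926.5 counts set the precision. Same-numbered adult HSC and LMPP libraries deviated together from their group means (r of 0.15, 0.31 and 0.47 across genes). These numbers were taken as a possible pairing of the adult libraries, read from the data and not from the labels. Pairs of libraries with unlike numbers reached 0.29, so this pairing is uncertain. The block was fitted over all 11 libraries. The procedure was tested on simulated data. Genes named in full were 11 fixed ones (Npm1, Ncl, Fbl, Dkc1, Polr1a, Polr1b, Rrn3, Ubtf, Nop2, Heatr1 and Gnl3), the lowest p of each role in fetal against adult HSC and LMPP, genes called in adult LMPP against HSC, and the 4 lowest p of the interaction. Values of further genes, such as Imp3 and Mybbp1a, were given after they were seen. Among them are the 4 genes whose HSC values are set beside the rise in LMPP. The other ribosome biogenesis list had 110 symbols, of which 104 were in the table and passed the filter. Alternatives were DESeq2 1.42.0, upper-quartile scaling, no filter, a filter of 5 CPM in 2 libraries, only the groups compared, the replicate number as a block, each library left out, and, chosen after seeing the data, plain totals and leaving out 3 libraries. For peaks, a distance of 1000 bases, a peak covering the start site and a −log10 q of at least 10 were tried.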

Additional observations from a re-analysis of the deposited data

Results flagged for a closer look

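The libraries of Bysl lay apart in opposite directions in the 2 sources of cells. Its adult LMPP libraries all lay below its adult HSC libraries, and its fetal LMPP libraries all lay above its fetal HSC libraries. Each of these held, taken singly, for 18.1% and 27.6% of all genes tested, and the share with both was not counted. In fetal liver the difference itself did not pass (0.26 ± 0.17, edgeR adjusted p = 0.327). The difference between the log2 differences was 0.862 ± 0.232 (SE), and it did not reach the threshold (edgeR adjusted p = 0.133). DESeq2 called it, with an adjusted p of 0.0255. The overlapping gene Ccnd3 had a difference of 0.55 ± 0.22 in the same test (edgeR adjusted p = 0.316).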

How the results depend on the processing

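With adult HSC 3, adult LMPP 3 and fetal LMPP 1 left out, a choice made after seeing the data, 3 of the 45 genes were higher in fetal than adult HSC, 37 in fetal than adult LMPP, 4 in LMPP than HSC of adult marrow, 37 in LMPP than HSC of fetal liver, and 9 in the interaction. Of the other ribosome biogenesis genes, 5 were higher and 2 lower in HSC, 59 higher and 1 lower in LMPP, 20 higher and 3 lower in adult marrow, 68 higher in fetal liver and 6 in the interaction. In the same order, 7.59%, 15.2%, 14%, 17.9% and 2.29% of all genes were higher. Of 14439 genes, 1241 were lower in HSC, 2215 in LMPP and 2291 in adult marrow. With plain library totals, also chosen after seeing the data, 1 of the 45 genes was higher in HSC and 11 were higher in fetal liver, while of the other genes 1 was lower in LMPP, 2 were lower in adult marrow, 13 were higher in fetal liver and 1 in the interaction. Of all 14720 genes, 2.35% were then higher in HSC, 5.07% in fetal liver and 0.428% in the interaction. Lower ones numbered 1643 in LMPP and 1654 in adult marrow. The summed level with plain totals was 8554 CPM in fetal HSC and 11979 CPM in fetal LMPP.

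DESeq2 called 1 of the 45 genes in HSC and 5 in the interaction, and of the other genes 1 lower in HSC, 8 higher and 1 lower in adult marrow, 41 in fetal liver and 6 in the interaction. Of all 14720 genes, DESeq2 called 4.42% higher in HSC, 10.3% in adult marrow, 11.8% in fetal liver and 2.07% in the interaction. It called 885 lower in HSC and 1858 lower in adult marrow. Upper-quartile scaling gave 1 of the 45 in HSC, where 2.11% of all genes were higher. No filter on low counts gave 2 other genes higher in adult marrow (5.98% of all genes). The stricter filter gave 1 of the 45 in the interaction, where 0.577% of all genes were called above 0. With only the groups compared in the fit, 0 of the 45 genes were higher and 0 lower in adult marrow and 35 were higher in fetal liver, and 0 and 53 of the other genes were higher. In that setting 5.14% of all genes were higher in adult marrow, with 1097 of 13637 lower, and 15.2% were higher in fetal liver. In each of these changes the cause was not tested. No gene of the 45 that was called in any setting run changed sign against its value with the design as written, while the median difference in adult marrow turned with plain totals. The counts of open promoters stayed within 1.5 times at 1000 bases, with the peak covering the start site and at the stricter q.

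With each library left out in turn, genes of the 45 called higher ranged from 0 to 1 in HSC, from 11 to 31 in LMPP, from 0 to 3 in adult marrow and from 1 to 29 in fetal liver, and those lower in adult marrow from 0 to 1. Other genes called higher ranged from 9 to 38 in LMPP, from 0 to 14 in adult marrow, from 2 to 45 in fetal liver and from 0 to 1 in the interaction. With both fetal HSC libraries kept, 1.41% to 2.27% of all genes were higher in HSC and 3.82% to 10.9% in LMPP. The shares were 4.94% to 10.3% in adult marrow, 4.56% to 12.3% in fetal liver and 0.21% to 0.452% in the interaction. Without either fetal HSC library, the remaining one is assumed to vary like the other groups.

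Of the 15 pairs of libraries with the same number, deviations correlated at −0.21 to 0.47, and the 3 over 0.1 were the 3 adult HSC and LMPP pairs. Of the 30 pairs with unlike numbers, 8 also lay over 0.1, up to 0.29. Adult HSC 1 correlated at 0.22 with adult LMPP 2, above its 0.15 with adult LMPP 1. In the other comparisons the libraries share only a number. With the replicate number as a block, 20 of the 45 genes were higher in fetal than adult LMPP, 19 in LMPP than HSC of fetal liver and 0 in adult marrow, where of the other genes 1 was higher and 1 lower. Of all genes, 6.57%, 6.71% and 7.39% were higher in these comparisons, in this order, and 1228 of 14720 were lower in adult marrow. The block changed no call of Bysl in adult marrow (edgeR adjusted p = 0.0309).

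The main limits are the 2 fetal HSC libraries, 1 peak list per group, amplified libraries without molecular identifiers, and lengths and spans from 1 transcript per gene.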
